A study of Drosophila melanogaster with 39 samples.

Results

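Intron-derived piRNAs were described here as the reads that Piwi immunoprecipitates contributed to the annotation classes intron sense and intron antisense, which are 2 of the 7 classes in the deposited annotation. The other classes are transposon sense and antisense, exon sense and antisense, and Rest, for reads outside all of these. The members were chosen by class name alone and were followed over all 14 annotated libraries, 4 from Drosophila ovaries and 10 from ovarian somatic sheath cells (OSC), a cultured line of the somatic follicle lineage. Each class is a sum over all introns of the genome, so no single intron or gene could be followed.

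The study replaced the specificity loop of Piwi, a short segment near the pocket that holds the first nucleotide of the small RNA, and sequenced small RNAs bound to each FLAG-HA-tagged protein (FH-Piwi). Ovary libraries carried the loops Ago3 (from another fly PIWI protein), GSS (a flexible glycine and serine stretch), LD (loop deficient) and wt, each from a UAS-FLAG-HA-Piwi transgene driven by Piwi>gal4, in which Gal4 is made under the piwi promoter. The labels give the same Piwi>gal4-Piwi>gal4 genotype for all 4, whereas the study places wt, Ago3 and GSS in rescued piwi null ovaries and LD in piwi heterozygous flies. Loop and genotype therefore cannot be told apart for ovary LD. OSC libraries came from transient transfection and carried Ago3, GSS, LD and wt, and also Aub (the third fly PIWI protein), AtAGO1 and AtAGO5 (Arabidopsis Argonautes), HsAGO2 (human Argonaute), its altered form HsAGO2 P>T, and Piwi N>P, a change within the loop of Piwi itself. OSC lack germ cells, while an ovary holds germ cells and somatic follicle cells together.

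Piwi is the nuclear PIWI protein of flies. It carries piRNAs that are mostly antisense to transposons and silences these elements through chromatin. Introns are removed from nascent transcripts by splicing, so a sense intron read has the strand of an unspliced or excised host transcript, while an antisense intron read has the strand opposite to the host gene. The deposited annotation names neither the introns nor the transcript that a read came from.

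The constructs differ in the loop, and the following primers, which the study lists for mutagenesis of piwi (chromosome 2L), show that change. They are forward primers written 5′ to 3′, and capitals mark the new bases at the primer's 5′ end. For LD these belong to the glycine linker that stands in place of the loop. The lower-case bases anneal to piwi, and the reverse primer of each pair carries the remainder of the new bases.
HsAGO2: GACCCCCagatactcatcaatcaaaaagag
HsAGO2 P>T: GCCCACCagatactcatcaatcaaaaagag
Piwi N>P: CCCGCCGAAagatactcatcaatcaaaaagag
Aub: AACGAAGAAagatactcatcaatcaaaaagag
GSS: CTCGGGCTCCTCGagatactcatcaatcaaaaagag
LD: GGCGGCtactcatcaatcaaaaagagag
The 5 primers other than LD share the same annealing bases, and LD anneals further into the coding sequence. No intron sequence is printed, because the deposited classes carry no positions.

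Annotated reads per library ranged between 4545657 and 18407140 in ovaries and between 2736859 and 64892223 in OSC. Not all annotation rows could be tied to the library they name. The total of 8 of the 14 rows equalled the mapped reads of the labelled library, or, for ovary LD, its 24 to 29 nt reads alone. The row labelled HsAGO2 had the total of the HsAGO2 P>T library and the reverse held as well, and the row labelled LD in OSC had that of another LD replicate. The OSC Ago3 and wt rows exceeded the mapped reads of their labelled library, at 200% of them for Ago3 and 100.3% for wt. The OSC GSS row equalled no library but came to 99.5% of the mapped reads of its label. The other 5 of these rows go against their labels, and the tissue differences without them are given beside those with them. Ovary libraries and OSC LD also carried an index label with random leading bases, while the other 9 OSC libraries did not, so index kind and tissue coincide except in OSC LD.

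Averaged over libraries, intron reads made up a smaller share of Piwi-bound reads in ovaries than in OSC. With the wt loop the gap was small, 6.63% against 6.99%. Sense and antisense intron reads together were 3.62% of annotated reads in ovary Ago3, 4.33% in ovary GSS, 2.64% in ovary LD and 6.63% in ovary wt. In OSC they were 6.55% in Ago3, 8.0% in Aub, 7.53% in AtAGO1, 7.51% in AtAGO5, 7.13% in GSS, 8.42% in the row labelled HsAGO2, 8.74% in the row labelled HsAGO2 P>T, 8.09% in Piwi N>P, 10.8% in LD and 6.99% in wt. The 3 ovary mutants lay below every OSC library, and ovary wt lay just above the lowest of them, OSC Ago3. The 95% Clopper-Pearson interval of each share reached at most 0.0368 percentage points to either side, and it covers counting error only, since the reads are PCR products without molecular identifiers.

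The mean intron share was 4.31 ± 1.70% in ovaries (SD, n = 4) and 7.98 ± 1.20% in OSC (SD, n = 10). The difference was -3.67 percentage points (95% interval -5.57 to -2.0, two-sided exact permutation test over libraries, adjusted p = 0.00799 by Benjamini-Hochberg over 4 tissue tests). Without the 5 rows that go against their labels, which leaves no OSC wt and only GSS as a shared loop, it was -3.35 points (exact permutation test, adjusted p = 0.0212). With OSC limited to the 4 loops also present in ovaries it was -3.56 points (exact permutation test, adjusted p = 0.114), in a design whose smallest unadjusted p is 0.0286. The libraries of a tissue carry different loops and are not replicates of 1 construct, so the spread includes the effect of the loop. In the only index kind found in both tissues, 4 ovary libraries between 2.64% and 6.63% stood against the single OSC library LD at 10.8%, which is too few for a test.

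**Figure D1:**
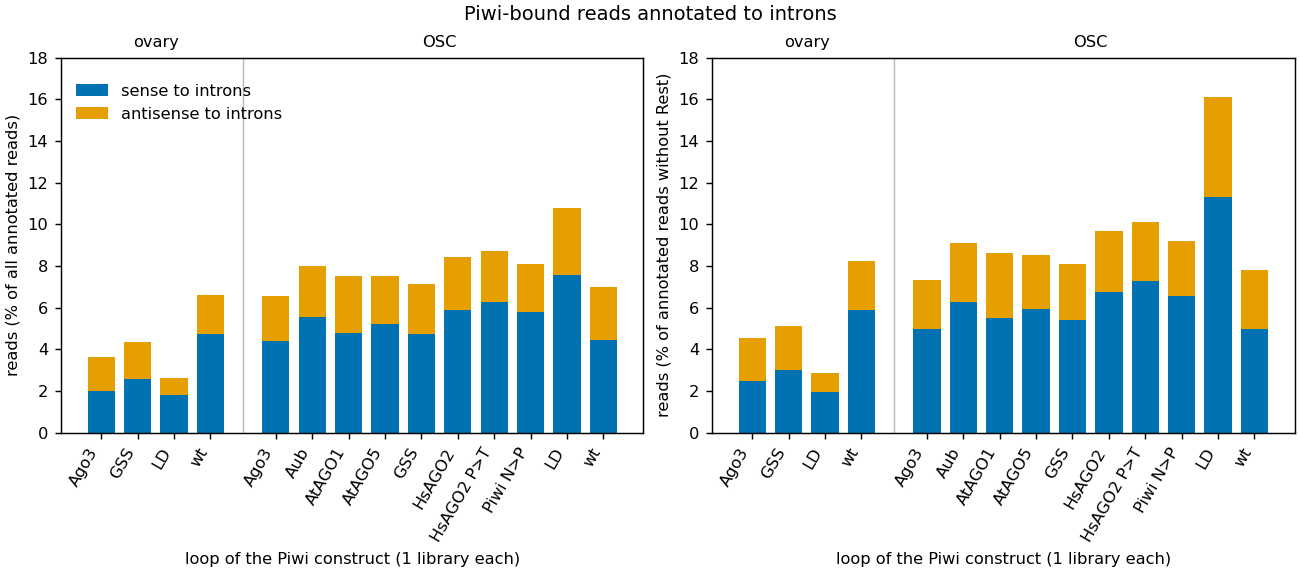
Stacked bars show the reads sense (blue) and antisense (orange) to introns in each library, as a percentage of all annotated reads (left panel) and of annotated reads without Rest (right panel). The 3 ovary mutants have the shortest bars, and OSC LD stands highest at 10.8% of all annotated reads and 16.1% without Rest.

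Both strands took part in the difference between the tissue means. Sense intron reads were 1.99% of annotated reads in ovary Ago3, 2.57% in GSS, 1.82% in LD and 4.73% in wt, against 4.42% (Ago3) to 7.58% (LD) in OSC. Their mean was 2.78 ± 1.34% in ovaries (SD, n = 4) and 5.47 ± 0.973% in OSC (SD, n = 10), a difference of -2.69 points (95% interval -4.23 to -1.33, exact permutation test, adjusted p = 0.00799). Ovary wt was the only ovary library whose sense share fell within the OSC range, and it exceeded the 4.44% of OSC wt.

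Antisense intron reads separated the tissues without overlap. They were 1.63% in ovary Ago3, 1.76% in GSS, 0.823% in LD and 1.90% in wt, and 2.13% (Ago3) to 3.23% (LD) in OSC. The mean was 1.53 ± 0.484% in ovaries (SD, n = 4) and 2.51 ± 0.303% in OSC (SD, n = 10), a difference of -0.978 points (95% interval -1.51 to -0.520). The unadjusted p of the exact permutation test, 0.0020, is the smallest that 4 against 10 libraries allow, and the adjusted p was 0.00799. Without the 5 rows against their labels the sense difference was -2.44 points and the antisense difference -0.901 points (exact permutation tests, adjusted p = 0.0212 for both). The lack of overlap was not particular to antisense intron reads. The share of exon reads, both strands together, was at most 7.75% in ovaries and at least 7.99% in OSC. For sense exon reads these limits were 6.26% and 6.68%. Antisense exon reads did not separate the tissues in this way. Ovary wt, at 1.49%, lay above the OSC range of 0.698% to 1.31%, and the ovary mutants, at 0.0649% to 0.464%, lay below it.

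The Rest class holds 7.50% to 20.3% of annotated reads in ovaries and 10.5% to 33.0% in OSC, so intron shares were also taken without it. They were then 4.54% in ovary Ago3, 5.10% in GSS, 2.86% in LD and 8.23% in wt. In OSC they ran between 7.34% in Ago3 and 16.1% in LD, with wt at 7.82%. Ovary wt thus exceeded OSC wt once Rest was left out, and lay below it when Rest was counted. The tissue means were 5.18 ± 2.24% in ovaries (SD, n = 4) and 9.46 ± 2.49% in OSC (SD, n = 10), and the difference of -4.28 points had the same direction (exact permutation test, adjusted p = 0.0133).

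The direction turned when the transposon class was left out as well. Transposon reads filled 75.3 ± 9.14% of annotated reads in ovaries and 66.3 ± 6.53% in OSC (SD, n = 4 and n = 10), and exon reads, like intron reads, had a lower share there, 4.79 ± 2.30% in ovaries and 11.6 ± 2.22% in OSC (SD, n = 4 and n = 10), a difference of -6.79 points. Among reads of exons and introns alone, introns took 44.2% in ovary Ago3, 47.9% in GSS, 55.2% in LD and 46.1% in wt, against 29.5% (wt) to 57.5% (LD) in OSC. The mean was 48.4 ± 4.82% in ovaries and 41.1 ± 7.36% in OSC (SD, n = 4 and n = 10), 7.27 points higher in ovaries with an interval of -1.82 to 15.2 (exact permutation test, adjusted p = 0.184). On this base the sense difference was 2.71 points (adjusted p = 0.446) and the antisense difference 4.57 points (adjusted p = 0.0480, exact permutation tests). A lower intron share in ovaries is therefore a statement about all Piwi-bound reads, and it did not hold relative to exon reads.

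**Figure D2:**
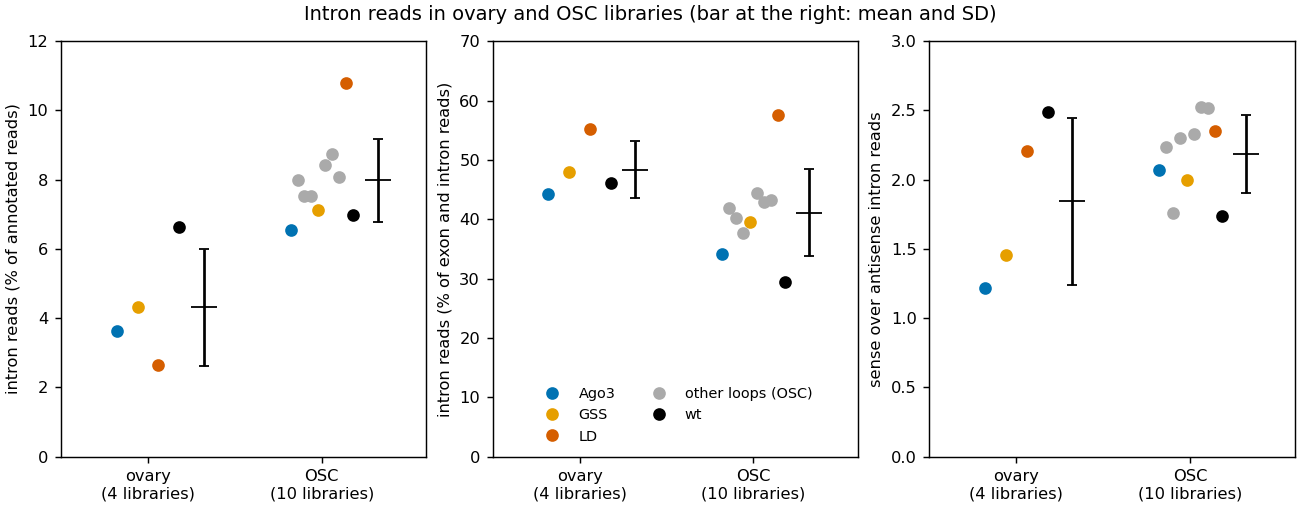
Each point is 1 library, coloured by loop, with ovary left of OSC, and the bar beside each group gives the mean and SD over 4 ovary and 10 OSC libraries. As a percentage of annotated reads, 3 of 4 ovary libraries lie below all OSC libraries and ovary wt, at 6.63%, lies just above OSC Ago3 (left). The groups overlap widely as a percentage of exon and intron reads (middle) and in the ratio of sense to antisense intron reads, where ovary Ago3 and GSS are lowest (right).

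In every library more intron reads were sense than antisense. The ratio of sense to antisense reads was 1.22 in ovary Ago3 (90550 and 74200 reads), 1.46 in ovary GSS (233106 and 159863 reads), 2.21 in ovary LD (216497 and 98019 reads) and 2.49 in ovary wt (870419 and 350201 reads). In OSC it was 2.07 in Ago3, 2.24 in Aub, 1.76 in AtAGO1, 2.30 in AtAGO5, 2.00 in GSS, 2.33 in the row labelled HsAGO2, 2.52 in the row labelled HsAGO2 P>T, 2.52 in Piwi N>P, 2.35 in LD and 1.74 in wt. Ovary Ago3 and GSS had a weaker sense excess than any OSC library, and ovary LD and wt lay within the OSC range. Counting error was small beside these gaps, with a 95% interval of 1.21 to 1.23 for ovary Ago3 and 1.73 to 1.75 for OSC wt.

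The tissues could not be separated by this ratio. Its mean was 1.84 ± 0.601 in ovaries and 2.18 ± 0.282 in OSC (SD, n = 4 and n = 10), or 0.82 ± 0.49 and 1.11 ± 0.19 as log2 ratios. The log2 difference of -0.29 had an interval of -0.77 to 0.15 (exact permutation test, adjusted p = 0.138), so a ratio in ovaries that is lower, equal or slightly higher is compatible with these libraries. Leaving out 1 library at a time kept this call in 13 of 14 runs. The exception was the run without ovary wt, the ovary library with the highest ratio, where the difference was -0.46 (exact permutation test, adjusted p = 0.0420). Without ovary Ago3, the library with the lowest ratio, it was -0.11 (exact permutation test, adjusted p = 0.469). Without the 5 rows that go against their labels it was -0.28 (exact permutation test, adjusted p = 0.270).

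Intron reads lay between exon and transposon reads in strand preference in every library. Exon reads were far more one-sided, with a sense to antisense ratio of 4.21 (wt) to 32.0 (LD) in ovaries and 5.11 (LD) to 18.1 (wt) in OSC. Transposon reads were mainly antisense, with ratios of 0.219 (wt) to 0.524 (Ago3) in ovaries and 0.0569 (GSS) to 0.0855 (the row labelled HsAGO2 P>T) in OSC. Within a library the log2 ratio of introns minus that of exons averaged -2.62 ± 0.84 (SD, n = 14) and was below 0 in 14 of 14 libraries. Its 95% interval was -3.09 to -2.13 (exact sign-flip permutation test, adjusted p = 0.000122, the smallest the design allows). The same difference against transposons was 4.11 ± 1.35 (SD, n = 14) and above 0 in 14 of 14 libraries (95% interval 3.31 to 4.90, exact sign-flip permutation test, adjusted p = 0.000122).

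**Figure D3:**
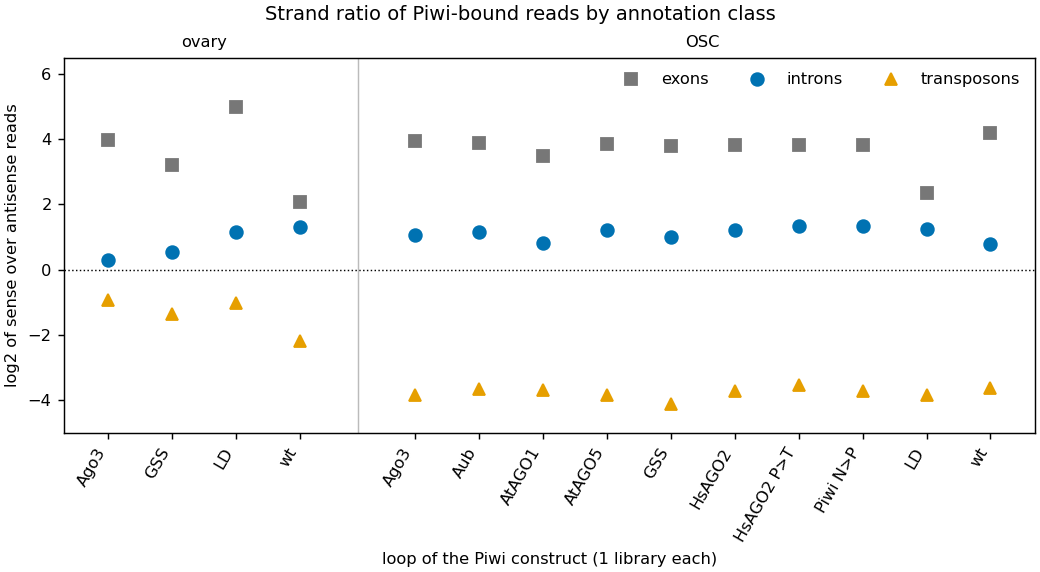
The log2 ratio of sense to antisense reads is plotted for exons (grey squares), introns (blue circles) and transposons (orange triangles) in each library, and the dotted line at 0 marks equal strands. Introns lie between exons and transposons in 14 of 14 libraries, closest to exons in ovary wt, where the log2 difference was -0.76, and farthest from them in ovary LD, at -3.86.

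Introns and exons were further compared strand by strand. In OSC there were 2.47 to 3.61 antisense intron reads per antisense exon read. In ovaries this number was 6.01 in Ago3, 3.80 in GSS, 12.7 in LD and 1.28 in wt, so ovary libraries spread more widely than the 10 OSC libraries and lay on both sides of them. On the sense strand there were 0.463 (Ago3) to 0.876 (LD) intron reads per exon read in ovaries and 0.280 (wt) to 1.13 (LD) in OSC. Antisense intron reads thus outnumbered antisense exon reads in 14 of 14 libraries, and sense intron reads outnumbered sense exon reads in OSC LD alone.

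Introns span more sequence than exons, which bears on what a share means. In the Ensembl annotation of BDGP6.54, whose coordinates are those of dm6, introns of genes covered 62.2 Mb and exons 36.8 Mb with strands summed, a ratio of 1.69. Per Mb of this sequence, sense exon reads were 1.93 (LD) to 3.65 (Ago3) times as dense as sense intron reads in ovaries and 1.49 (LD) to 6.04 (wt) times in OSC. On the antisense strand the density of exon reads was below that of intron reads in all 10 OSC libraries, at 0.469 to 0.685 times, and in ovaries it was 0.281 times in Ago3, 0.445 in GSS, 0.133 in LD and 1.32 in wt. Introns were thus less dense than exons in sense reads in 14 of 14 libraries, and denser in antisense reads in all but ovary wt. Of the intron length, 3.86% lay opposite an exon, 5.57% opposite an intron and 6.37% over an annotated transposon. The gene set behind the authors' classes is not given in the sources used here, so these densities are approximate, and the part of such overlaps in the antisense intron reads was not tested.

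Within a tissue each loop had 1 annotated library, so mutants were set beside wt without a test. In ovaries the intron share was lower in 3 of 3 mutants than in wt, at 0.398 (LD) to 0.653 (GSS) times the wt share. The sense share was 0.385 to 0.543 times and the antisense share 0.433 to 0.926 times that of wt, and the sense to antisense ratio was 0.491 (Ago3) to 0.889 (LD) times that of wt. Ago3 and GSS differed from wt mainly in sense reads, whereas LD was low on both strands. The ovary LD row counts only 24 to 29 nt reads and the other 3 ovary rows count all mapped reads, and the part of this in its low share was not tested.

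In OSC most mutants had a higher intron share of annotated reads than wt. It was higher in 8 of 9 mutants, between 0.937 (Ago3) and 1.55 (LD) times the wt share, and the sense share was 0.995 to 1.71 times. The antisense share exceeded that of wt in only 2 of 9 mutants, AtAGO1 at 1.07 and LD at 1.26 times, and reached down to 0.836 times in the others. The sense to antisense ratio was accordingly higher in 9 of 9 mutants, at 1.01 (AtAGO1) to 1.45 (the row labelled HsAGO2 P>T) times the wt ratio. The exon share was lower than in wt in 3 of 3 ovary mutants, at 0.276 to 0.608 times, and in 9 of 9 OSC mutants, at 0.477 to 0.756 times. Introns took a larger part of exon and intron reads than in wt in 2 of 3 ovary mutants (0.959 to 1.20 times) and in 9 of 9 OSC mutants (up to 1.95 times), so on this base the mutants of both tissues lay mostly on the same side of wt. All 9 OSC values share the same wt library, whose row total is 100.3% of its labelled library's mapped reads, and the part of that library in the common direction was not tested.

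OSC LD held the highest intron share of all 14 libraries on both bases. It was also the smallest OSC library, with 2736859 annotated reads, the one with the largest Rest share, 33.0%, and the lowest OSC exon share, 7.99%. Its strand ratio of introns, 2.35, was within the range of the other OSC mutants, while its exon ratio, 5.11, was the lowest in OSC. AtAGO1 had an intron ratio close to wt, 1.76, and 44.1% of its 20 to 30 nt reads were 20 to 23 nt long, the highest share among the 14 labelled libraries. The part of depth, read length and unassigned reads in these values was not tested.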

How the data were processed

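The deposited values are read counts by annotation class, 1 row for each construct. The authors removed adapters with cutadapt, mapped the reads to dm6 with STAR and counted reads by class before deposition. Whether a read could count in more than 1 class is not stated, and the shares here take each read as counted in 1 class. The order of precedence between classes is not given in the sources used here. The authors also deposited mapping statistics and reads by length, used here to check row totals and read length. The transposon antisense column holds read counts like the other classes, above a text key that was left out, and the mapping statistics mix counts with other entries. The study describes its annotation as covering 24 to 29 nt reads, whereas the totals of 10 rows equalled all mapped reads of a library and that of 1 row, ovary LD, its 24 to 29 nt reads. Of 39 samples, 24 immunoprecipitated libraries were considered and 14 had a row; 15 total RNA libraries were not used. Computations used Python 3.11.15 and its packages scipy 1.17.1 (tests), pandas 2.3.3 (tables), numpy 2.4.6 and matplotlib 3.10.9 (plots).

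Shares and ratios were computed per library without a filter or pseudocount. Tissues were compared by two-sided exact permutation of the 14 library labels over 1001 splits, classes within a library by exact sign-flip permutation, and 95% intervals came from inversion of the same tests. Intervals of single shares are Clopper-Pearson. The threshold was 0.05, with Benjamini-Hochberg adjustment over 4 tissue and 2 within-library tests. The permutation test between tissues and its interval were checked on simulated data, and the sign-flip test was not. The classes, bases and tests were chosen with earlier results of these data known, and nothing says that libraries came from separate cultures or animals beyond their labels.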

Additional observations from a re-analysis of the deposited data

Results flagged for a closer look

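OSC LD stood apart from the other 9 OSC libraries in 4 intron measures, as its gap to the nearest library took up more of the OSC range than Dixon's 95% critical value for 10 samples. These were the intron share of annotated reads (10.8%), the share without Rest (16.1%), the share of exon and intron reads (57.5%) and the log2 strand ratio of introns minus exons (-1.12). The measures share the same reads and are not independent, and chance alone flags about 1 in 20 groups. Leaving OSC LD out changed the tissue difference in intron share to -3.36 points (exact permutation test, adjusted p = 0.0112).

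The log2 ratio of sense to antisense intron reads, taken relative to wt, had opposite signs in the tissues. Its mean was -0.66 over 3 ovary mutants, each below wt, and 0.35 over 9 OSC mutants, each above wt. The difference was not tested, because each tissue had 1 annotated wt library that all its mutants share.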

How the results depend on the processing

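Leaving out 1 library at a time moved the tissue difference (ovary minus OSC) between -4.44 and -3.12 points for the intron share, between -3.34 and -2.37 for the sense share and between -1.10 and -0.742 for the antisense share, all with adjusted p at most 0.0280. The log2 sense to antisense difference moved between -0.46 and -0.11. Introns minus exons stayed between -2.77 and -2.53, and introns minus transposons between 4.03 and 4.33. Counting only exon and intron reads reversed the 3 share differences to 7.27, 2.71 and 4.57 points. With only the 4 loops found in both tissues the differences were -3.56, -2.52 and -1.04 points, past no threshold either unpaired (adjusted p = 0.114 each) or with loops matched (adjusted p = 0.25, 0.333 and 0.25, exact permutation tests). The matched test could not have passed, as 4 pairs allow no p below 0.125. In the 4 ovary rows alone the within-library differences were -2.74 and 2.20 (exact sign-flip permutation test, p = 0.125, the smallest possible). Leaving out the 5 rows against their labels was chosen after seeing the data and changed no call. No paired analysis was possible because no replicate number pairs the rows, which hold 1 library for each construct. The matching above was by loop.

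The few libraries, index kinds that coincide with tissue, and rows that differ in read length or label limit these comparisons.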
